A study of Mus musculus with 30 samples.

Results

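The response of p38α-/- mouse embryonic fibroblasts (MEFs) to TNFα was read from 4 of the 30 arrays of the series, chosen by their titles. Of these, 2 arrays held immortalised p38α-/- MEFs given TNFα at 100 ng/ml for 45 min, and 2 held the same line left untreated. The p38α-/- line lacks the kinase encoded by Mapk14 in every condition. Whether it stems from 1 embryo or 1 clone is not given in the sources used here. Immortalised wild type MEFs with the same TNFα treatment (2 arrays), and p38α-/- MEFs given anisomycin (25 ng/ml, 45 min) or NaCl (100 mM, 2 h), 2 arrays each, served for comparison. Wild type MEFs given the p38 inhibitor SB203580 alone or before TNFα, 2 arrays each, were set alongside. Each array set the RNA of 1 culture (red dye, Cy5) against 1 common pool from 2 wild type cultures left untreated (green dye, Cy3), so a value is a log2 ratio to that pool. In the difference between treated and untreated p38α-/- arrays the pool drops out.

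TNFα is an inflammatory cytokine that binds TNF receptors on most cells. Within minutes its receptor complex activates the IKK kinases, which release the transcription factor NF-κB to the nucleus. It also activates the stress kinases JNK and p38, which act on AP-1 and other immediate early factors and, through the kinase MK2, on the stability of inflammatory mRNAs. In fibroblasts the early targets are chemokines, inhibitors that switch NF-κB off again, and immediate early genes. The comparison asks which of these still answer to TNFα when the main p38 kinase of the cells is missing.

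The 4 arrays differed in scanning. The first untreated and first TNFα array were scanned on 1 day, the second untreated array on another, and the second TNFα array alone on a further day. The red signal exceeded background clearly on 90.7% to 95.2% of the spots, and the scanner software flagged 15% to 27% of the spots as outliers. The flag took Mapk14 out of the main comparison. With flagged spots kept, its log2 ratio was -0.94 and -1.98 on the untreated p38α-/- arrays, -1.14 and -1.13 on the p38α-/- TNFα arrays, and 0.34 and 0.03 on the wild type TNFα arrays. All 4 p38α-/- arrays were thus below the wild type arrays. The sources do not say whether the probes lie in the deleted stretch of the gene. Of 10 fibroblast marker genes, all were well above background on the 4 arrays. So were all of the 6 macrophage, 4 endothelial, 4 epithelial and 4 T cell markers, so this detection count does not tell the cell types apart.

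Without p38α, 14 genes rose with TNFα and no gene fell (limma, adjusted p under 0.05 over 15142 genes, 0.0925% up and 0% down). The 13 described here included the chemokine genes Ccl20, Cxcl10 and Ccl7 and the NF-κB regulator genes Tnfaip3 and Nfkbiz. The others were the transcription factor genes Irf1 and Jun, and Ier3, Zfp36, Gadd45b, Dusp8, Btg2 and a probe named for Olfr1015. The 14 increases ran from 1.49 to 6.26 on the log2 scale, or 2.81- to 76.7-fold, while the median over all genes was -0.03. In 14 of 14 genes both TNFα arrays lay above both untreated arrays, which was also so for 12.9% of all genes, while for 16.4% both lay below. The 14 had been called on these same 4 arrays, so their lack of overlap is no separate support. At an unadjusted p under 0.05 there were 243 genes up and 168 down. The test drew its spread from all 30 arrays, or from fewer for a gene whose spots were flagged on some of them. With the spread from the 8 p38α-/- arrays alone 1 gene (Irf1, adjusted p = 0.00234) passed, and with the 4 arrays alone 0 did. Replicates were independent experiments by the study's methods, with 2 per group. In such bulk RNA, more cells answering and more RNA per cell cannot be told apart.

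Several of these genes carry sequences in their promoters that NF-κB or AP-1 can bind, and these are printed below as a description. Whether they bear on the increases was not tested. Windows from 250 bases before to 50 bases after the transcription start were taken from RefSeq (GRCm38.p6). The 10-letter κB consensus was found on either strand in the windows of 11.2% of all 13991 genes that had one, and the AP-1 site TGANTCA in 8.16%. Of the 13 genes, 11 had a window, and 5 of these held a κB match and 2 an AP-1 match. The matches are printed 5′ to 3′ on the gene's strand with 10 bases on either side, in capitals the letters that matched. A match describes the sequence and does not show that a factor was bound.
Ccl20 (chr1:83116676-83116705, + strand), κB: aatcaatgggGGAAAACCCCgggtgagaac
Cxcl10 (chr5:92349029-92349058, - strand), κB: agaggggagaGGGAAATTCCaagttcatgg
Cxcl10 (chr5:92348974-92349003, - strand), κB: tcggtttacaGGGGACTTCCctcgggttgc
Cxcl10 (chr5:92348947-92348973, - strand), AP-1: ggagccttgcTGAGTCAtctccaaagt
Tnfaip3 (chr10:19015516-19015545, - strand), κB: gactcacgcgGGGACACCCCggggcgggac
Tnfaip3 (chr10:19015403-19015432, - strand), κB: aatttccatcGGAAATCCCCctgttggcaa
Tnfaip3 (chr10:19015530-19015556, - strand), AP-1: aatgcccaggTGACTCAcgcggggaca
Irf1 (chr11:53769991-53770020, + strand), κB: agtccgggccGGGGAATCCCgctaagtgtt
Ier3 (chr17:35821611-35821640, + strand), κB: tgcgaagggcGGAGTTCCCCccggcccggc

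A further κB match of Cxcl10 overlaps the second one printed, shifted by 1 base. The κB matches nearest to a transcription start were those of Tnfaip3, 12 bases before it, and of Irf1, 13 bases before it. The Ccl20 match lay 80 bases and the Ier3 match 92 bases upstream.

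Ccl20 and Cxcl10, both chemokine genes, showed the highest increases of the 14. Ccl20, which attracts CCR6-bearing lymphocytes and dendritic cells, had log2 ratios of 0.75 and -1.37 on the untreated arrays and of 6.18 and 5.72 on the TNFα arrays. The untreated arrays were apart by more than 2 units, yet both TNFα arrays were far above them. The increase was 6.26 ± 0.55 (SE, n = 2 against 2), or 76.7-fold (limma, adjusted p = 5.39e-06). Each SE given here is that of the model, whose spread comes from all groups and not from the arrays compared alone. With the 4 arrays alone the SE was larger for Ccl20 (0.77) and smaller for some others, such as Dusp8 (0.217 against 0.27). Cxcl10, a ligand of CXCR3 that recruits activated T cells, went from 2.35 and 0.20 to 6.29 and 5.95. Its untreated arrays were also unequal, and the first of them stood well above the wild type pool. The Cxcl10 increase was 4.85 ± 0.57, or 28.8-fold (adjusted p = 0.000251). Ccl7, a monocyte attractant, went from 0.42 and -0.44 to 3.92 and 4.39, a rise of 4.17 ± 0.34 and 18-fold (adjusted p = 5.03e-06). When its probes with flagged spots were averaged in, the Ccl7 rise was 3.01 ± 0.27 (adjusted p = 6.27e-06).

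Genes that regulate NF-κB rose as well. Tnfaip3 encodes A20, a ubiquitin-editing enzyme that shuts off signalling from the TNF receptor. Its log2 ratio was 0.64 and -0.25 without and 4.59 and 4.28 with TNFα, an increase of 4.24 ± 0.34 and 18.9-fold (limma, adjusted p = 5.03e-06). Nfkbiz, which encodes the nuclear IκBζ, went from 0.45 and -0.15 to 2.72 and 3.39. Both TNFα arrays were high, and the rise was 2.91 ± 0.30, or 7.50-fold (adjusted p = 0.000107). Irf1, a transcription factor of interferon and antigen presentation genes, had closely matching arrays, with 0.54 and 0.47 untreated and 4.10 and 4.35 with TNFα. Its increase of 3.72 ± 0.22 (13.1-fold) had the smallest adjusted p of all genes, 1.08e-07. Averaging in the Irf1 probes with flagged spots lowered the increase to 2.02 ± 0.16, still past the threshold (adjusted p = 1.66e-06). When every probe an array measured was averaged, so that arrays could differ in their probes, it was 2.83 ± 0.68 and did not pass (adjusted p = 0.46).

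The probe named for Olfr1015, an olfactory receptor gene, went from 0.56 and -0.14 to 4.69 and 4.00, a rise of 4.14 ± 0.55 (limma, adjusted p = 0.001). These values follow those of Tnfaip3 closely. Over the 30 arrays the log2 ratios of the probes of both genes were never more than 1.14 apart. On the wild type TNFα arrays they were 5.69 and 4.99 for Olfr1015 and 5.69 and 4.98 for Tnfaip3. Which RNA the probe takes up was not tested.

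Immediate early genes and regulators of stress signalling made up the rest of the 13. Jun, an AP-1 subunit and JNK substrate, went from 0.60 and 0.22 to 2.71 and 3.33. Its increase was 2.61 ± 0.31, or 6.11-fold (limma, adjusted p = 0.000298), with no overlap. Ier3, an early response gene linked to cell survival, had the lowest log2 ratios of the 13 after treatment. Its log2 ratio was -1.76 and -1.91 untreated and 0.72 and 0.90 with TNFα, a rise of 2.65 ± 0.30 (adjusted p = 0.00788) from a level that in untreated p38α-/- MEFs lay 1.84 below the pool (adjusted p = 0.000586, with 7.36% of 16790 genes called lower and 9.04% higher in these cells). Ier3 lost its call with any 1 of the 4 arrays left out (adjusted p from 0.0647 to 0.11), though it kept a rise of 2.55 or more.

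Zfp36 encodes tristetraprolin, an mRNA decay factor that destabilises AU-rich transcripts and is a target of MK2. It went from 0.03 and -0.13 to 1.78 and 2.41, a rise of 2.15 ± 0.24 and 4.43-fold (limma, adjusted p = 0.001). Gadd45b, a survival gene of the NF-κB pathway that restrains JNK signalling, went from -0.45 and -0.85 to 1.42 and 1.03. Its rise was 1.87 ± 0.24, or 3.66-fold (adjusted p = 0.001). Btg2, an antiproliferative early gene, went from -0.02 and 0.32 to 1.60 and 1.67, a rise of 1.49 ± 0.17 (adjusted p = 0.001). With every probe an array measured Btg2 was at 1.53 and did not pass (adjusted p = 0.502). In all 3 genes the groups did not overlap, as in all genes called on these arrays.

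The call of Dusp8 was less stable. Dusp8, a phosphatase that acts on JNK and p38, went from 0.38 and -0.14 to 1.70 and 1.75, a rise of 1.61 ± 0.27 (limma, adjusted p = 0.022). It lost the call without either TNFα array or without the second untreated array (adjusted p from 0.127 to 0.439). A term for the scan day gave Dusp8 1.56 (adjusted p = 0.0583). The second TNFα array was alone on its day, so that term takes up this array and the value rests on the first TNFα array.

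**Figure D1:**
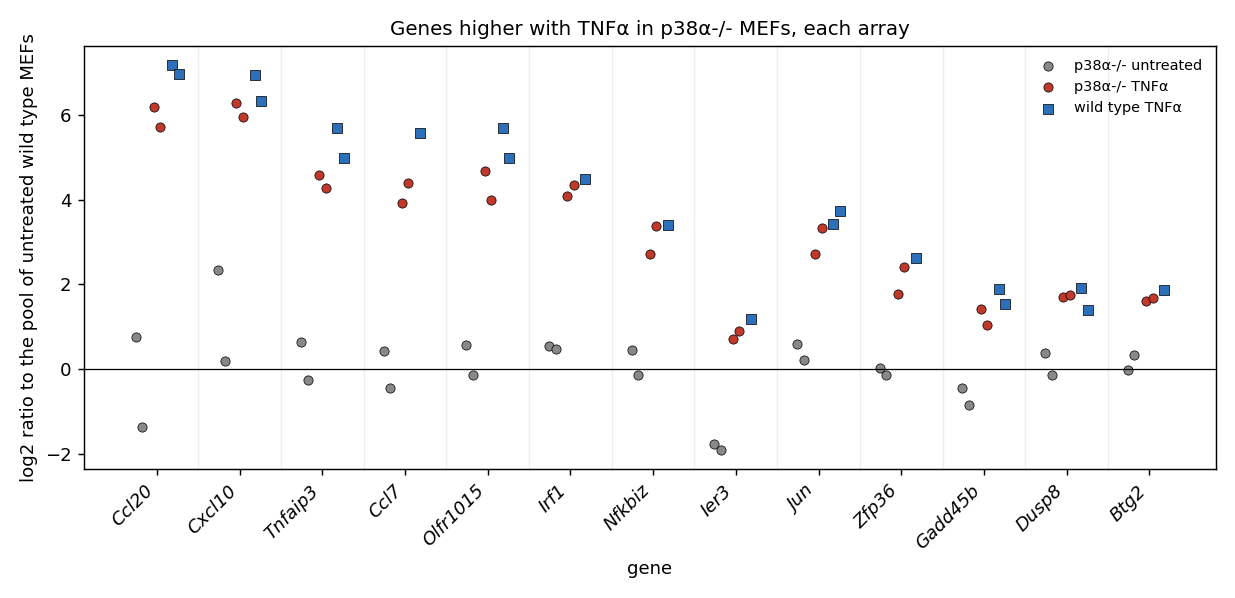
Log2 ratio to the pool of untreated wild type MEFs (vertical axis) of 13 genes that rose with TNFα in p38α-/- MEFs (horizontal axis), with 1 point per array for untreated (grey) and TNFα-treated (red) p38α-/- MEFs and for TNFα-treated wild type MEFs (blue squares, for the same probes where they were measured). Both p38α-/- TNFα arrays lie above both untreated arrays in all 13 genes, and Ier3 starts below the pool at -1.76 and -1.91.

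Well known TNFα targets were also among the genes whose spots had been flagged as outliers. With these spots kept, 24 of 21689 genes passed upwards (0.111%) and 0 downwards (limma, with 588 up and 176 down at an unadjusted p under 0.05). They included all 14 genes above and 10 more. Ccl2, the main monocyte attractant of fibroblasts, went from -0.31 and -0.34 to 3.45 and 2.86, a rise of 3.48 ± 0.20 and 11.1-fold (adjusted p = 2.59e-08). Cxcl1, which attracts neutrophils, went from -0.45 and -0.05 to 3.14 and 2.77, a rise of 3.20 ± 0.22 (adjusted p = 1.68e-07). Vcam1, an adhesion molecule for leukocytes, went from 0.08 and 0.28 to 2.28 and 2.14, a rise of 2.03 ± 0.27 (adjusted p = 0.000655). Without flagged spots its value was 1.53 (adjusted p = 0.112).

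Tnfaip2, a gene found by its TNFα induction, showed a difference of 1.54 ± 0.21 with flagged spots kept (limma, adjusted p = 0.0012). Junb, an AP-1 subunit, showed 1.46 ± 0.17 (adjusted p = 0.000185), against 0.56 and an adjusted p of 1 without flagged spots. Nfkbia encodes IκBα, the inhibitor that NF-κB induces to end its own activity, and went from -0.63 and -0.57 to 0.43 and 0.56. Its difference of 1.1 ± 0.15 passed with flagged spots kept (adjusted p = 0.00122) and was 1.1 with an adjusted p of 0.192 without them. The remaining genes were Phlda1 (1.32), Ripk2, a kinase of NOD receptor signalling (1.29), Itgb1bp3 (1.14) and Sdc4, a cell surface proteoglycan (0.83). With flagged spots kept, Ccl2, Cxcl1, Vcam1, Tnfaip2 and Junb passed under all 6 further settings tried (each array left out, replicate block, term for scan day), and Nfkbia under 5. Sdc4 passed under 4, and Phlda1, Ripk2 and Itgb1bp3 under 2 each. A κB match was found in 11.2% of all genes with a promoter window. Of the 10 genes, 5 had a window, and 4 of these (Cxcl1, Tnfaip2, Nfkbia and Sdc4) held a κB match. These matches are shown for Cxcl1 and Nfkbia, the best known NF-κB targets of the 4.
Cxcl1 (chr5:90891164-90891193, + strand), κB: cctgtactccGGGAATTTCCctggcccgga
Nfkbia (chr12:55492657-55492686, - strand), κB: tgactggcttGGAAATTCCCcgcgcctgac

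**Figure D2:**
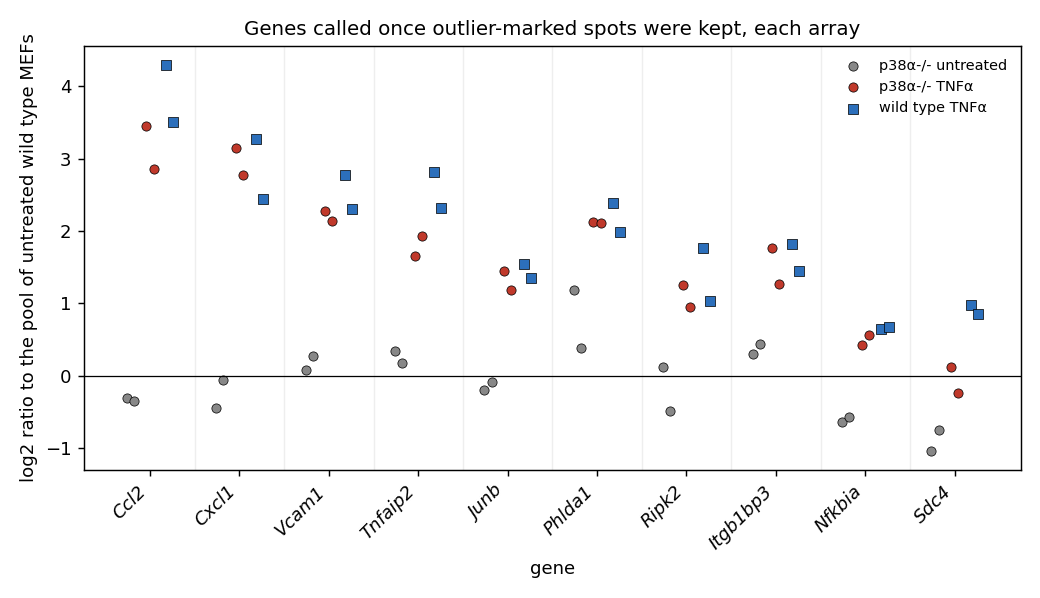
Log2 ratio to the pool of untreated wild type MEFs (vertical axis) of the 10 genes that passed only with outlier spots kept (horizontal axis), with 1 point per array for untreated (grey) and TNFα-treated (red) p38α-/- MEFs and for TNFα-treated wild type MEFs (blue squares, for the same probes where they were measured). Ccl2 and Cxcl1 move furthest, to 2.77 or more on both p38α-/- TNFα arrays, and Sdc4 the least.

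Seen by role, most members of each gene list did not pass. Over all 15142 genes tested, 0.0925% passed upwards. The lists were chosen with earlier results of these data known, so the counts are no test of a list. Of the NF-κB subunits and regulators, 2 of 11 tested genes rose (Nfkbiz and Tnfaip3), with a median difference of 0.32 over the list. Of these 11, 10 had a difference above 0, as did 6646 of all 15142 genes. The gene of the p50 precursor, Nfkb1, was at 0.63 (limma, adjusted p = 1). The receptor and its signalling complex gave 0 of 13 with a median of -0.03. Its highest member was Map3k8, a kinase upstream of ERK in TNFα signalling, with 0.29 and 0.27 untreated and 1.74 and 1.81 with TNFα. The Map3k8 arrays did not overlap, but its difference of 1.5 ± 0.34 did not pass (adjusted p = 0.291).

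Among the CXC and CX3C chemokines 1 of 11 rose (Cxcl10, median of the list 0.23), and among the CC chemokines 2 of 13 (Ccl7 and Ccl20, median 0.10). None of 15 cytokine genes passed, with a median of 0.16. The highest was Csf1, the macrophage growth factor, at 1.68 ± 0.61 (limma, adjusted p = 1). The genes of TNFα itself (0.21) and interleukin 6 (0.48) were both near their untreated level on this scale, without passing. None of 8 adhesion molecules passed, with a median of 0.30, Icam1 at 0.34 and Vcam1 the highest at 1.53. The outlier flag had taken some members out of these lists. With flagged spots kept, 2 of 15 CXC and CX3C chemokines, 3 of 19 CC chemokines and 0 of 22 cytokine genes passed. So did 1 of 10 adhesion molecules (Vcam1) and 3 of 17 genes on the NF-κB list. Over all 21689 genes, 0.111% passed upwards in that setting.

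Of the AP-1 and other immediate early factors, 2 of 20 rose (Jun and Ier3) with a median of 0.26. Egr1, a zinc finger factor induced by ERK and stress signals, had non-overlapping arrays of 0.42 and 0.76 untreated and 2.20 and 2.83 with TNFα. It missed the threshold at 1.93 ± 0.36 (limma, adjusted p = 0.0705). Fos, the partner of Jun in AP-1, went from 0.91 and 0.09 to 2.01 and 2.43 and was at 1.71 ± 0.47 (adjusted p = 0.86). Myc was at 1.71 ± 0.63 (adjusted p = 1), with untreated arrays of 1.85 and 0.06. Among the MAP kinase phosphatases 1 of 7 rose (Dusp8, median 0.15), and Dusp1, which inactivates p38 and JNK, was at 1.16 ± 0.21 (adjusted p = 0.135).

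The mRNA decay factors had 1 of 6 members up (Zfp36, median 0.39), with the related Zfp36l1 at 0.90 (limma, adjusted p = 0.581). The interferon list had 1 of 14 (Irf1, median 0.05) and the survival genes 1 of 8 (Gadd45b, median 0.21). Antigen presentation genes gave 0 of 7 with a median of 0.13, and SOCS and cytokine feedback genes 0 of 7 with a median of -0.07. The p38 pathway list gave 0 of 13, with differences between -0.25 and 0.35. Markers of fibroblasts, macrophages, endothelial cells, epithelial cells and T cells gave 0 called genes each, with medians between -0.12 and -0.00. Of the 13 genes, Btg2 and Olfr1015 were on no list.

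No gene passed the test for repression at 45 min. At the size of 2.5-fold used in the study, 28 genes were up (0.185%) and 4 down (0.0264%) without regard to a test. The lowest of the 4 was Kbtbd8, with 3.62 and 0.11 untreated and 0.60 and -0.26 with TNFα, so its value rested on 1 high untreated array. Sox2 and Olfr670 likewise had a single high untreated array, while Cfap74 was at 1.79 and 0.67 untreated and at 0.00 and -0.42 with TNFα (limma, adjusted p = 0.86). A ratio of exactly 0 is what the software writes when it replaces a dim signal, so the size of the Cfap74 difference is uncertain. All 4 were named after their values were seen.

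The other treatments of the same cells separated the 13 genes. Against anisomycin, an inhibitor of translation that activates JNK and p38 and was also given for 45 min, 7 of 15861 genes were higher with TNFα (0.0441%) and 4 lower (0.0252%). The 7 higher genes were all among the 13, which had been found with the same TNFα arrays. They were Ccl20 (5.97 ± 0.55, limma, adjusted p = 2.22e-05), Cxcl10 (4.30), Ccl7 (3.75), Olfr1015 (3.72), Tnfaip3 (3.53), Irf1 (3.12) and Nfkbiz (2.99). Under anisomycin none of these 7 differed from untreated by more than 0.71 on the log2 scale. Tnfaip3 was at 1.21 and 0.59 there, against 0.64 and -0.25 untreated. Of the 5 of these genes with a promoter window, 4 held a κB match (Ccl20, Cxcl10, Tnfaip3 and Irf1). So did 11.2% of all genes with a window.

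Jun behaved the other way round. Its log2 ratio was 4.66 and 5.00 with anisomycin against 2.71 and 3.33 with TNFα, a difference of -1.81 ± 0.31 (limma, adjusted p = 0.0241). Dusp1 was also lower with TNFα than with anisomycin, by -2.20 (adjusted p = 0.000679). The further genes lower with TNFα, named after their values were seen, were Pax3 and Zcchc3. Ier3, Zfp36, Gadd45b, Dusp8 and Btg2 rose under anisomycin too, by 2.17, 1.51, 1.49, 2.28 and 2.27 (adjusted p from 0.000491 to 0.0354, with 0.0917% of 16349 genes called up and 0.00612% down). None of these 5 passed the test of the difference between the treatments. Jun and these 5 genes all had a promoter window, and 1 of the 6, Ier3, held a κB match. Whether κB matches differ between these 6 genes and the 7 above was not tested.

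NaCl was given for 2 h rather than 45 min, so treatment and time cannot be told apart in that comparison. With TNFα 46 of 16149 genes were higher (0.285%) and 75 lower (0.464%) than with NaCl, and 9 of the 13 were among the higher ones. These were the 7 genes above with Dusp8 (1.33, limma, adjusted p = 0.0249) and Btg2 (2.43, adjusted p = 1.09e-05). Ier3, Jun, Zfp36 and Gadd45b rose with NaCl as well (2.75, 2.68, 1.5 and 2.47, with 0.601% of 16470 genes called up and 0.577% down). Their differences between TNFα and NaCl lay between -0.60 and 0.65 and did not pass.

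**Figure D3:**
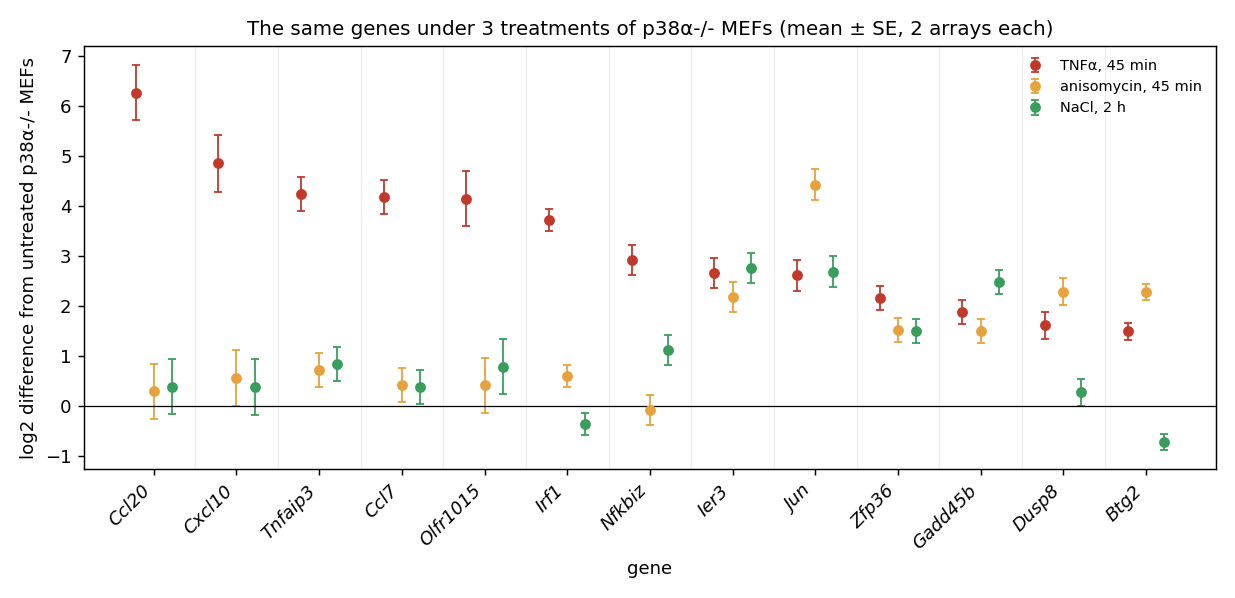
Log2 difference from untreated p38α-/- MEFs (vertical axis) of 13 genes (horizontal axis) after TNFα for 45 min, anisomycin for 45 min and NaCl for 2 h. Points are mean differences with 2 arrays per group. Bars are ± SE of the model, whose spread comes from all groups. Ccl20 rises by 6.26 with TNFα and stays within 0.38 of untreated with the other treatments, while Jun reaches 4.42 with anisomycin.

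In wild type MEFs TNFα was measured against the pool, which is a single control sample whose own spread the test leaves out. No untreated wild type culture was measured in red. A difference between the dyes therefore stays in the wild type values and in any comparison of the responses. Between treated and untreated p38α-/- arrays it drops out. Its size was not tested. In the wild type test 946 of 15355 genes were called up (6.16%) and 964 down (6.28%), so these counts cannot be set against the 14. Of the 13 genes, 9 had a probe measured on both wild type arrays and all 9 were called up. The wild type responses of the probes measured on all 6 arrays were 7.07 for Ccl20, 6.64 for Cxcl10, 5.34 for Tnfaip3 and 3.59 for Jun. In p38α-/- MEFs the same probes gave 6.26, 4.85, 4.24 and 2.61. Of the 9 genes, 8 had a smaller response in the p38α-/- line, with Tnfaip3 and the closely similar Olfr1015 both among them. The median difference over all genes was -0.08, so most genes also had a negative difference. Wild type and p38α-/- MEFs are separate lines, so genotype and line cannot be told apart. The first wild type TNFα array was scanned on a day of its own among the 6 arrays. The second shared the day of the first untreated and first TNFα p38α-/- arrays.

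The difference of the 2 responses was tested in the same model. Over 13491 genes, 53 had a higher (0.393%) and 23 a lower response (0.17%) in p38α-/- MEFs. None of the 9 genes passed (limma). Cxcl10, at -1.79 ± 0.69 (adjusted p = 0.23), and Tnfaip3, at -1.1 ± 0.42 (adjusted p = 0.23), did not pass. Without the second untreated array the Cxcl10 difference was -2.86 and passed (adjusted p = 0.0404). With the replicate number as a block both passed, Cxcl10 at -2.11 (adjusted p = 0.0143) and Tnfaip3 at -1.25 (adjusted p = 0.0253). Gadd45b (1.87 without and 1.72 with p38α) and Dusp8 (1.61 and 1.65) had the closest responses, with a difference of 0.15 ± 0.30 and of -0.05 ± 0.33. With flagged spots kept, when 7.22% of 21689 genes were called higher and 0.918% lower, Ccl2 differed by -0.43 ± 0.25 (adjusted p = 0.306) and Cxcl1 by 0.35 ± 0.26 (adjusted p = 0.45). Tnfaip2 passed there, at -1.03 ± 0.26 (adjusted p = 0.0226).

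Of the 10 genes with the highest wild type response among those measured on both wild type arrays, Cxcl5 and Fos did not pass in p38α-/- MEFs. Ccl7, Irf1 and Nfkbiz were not ranked, as the flag left them without a value on the second wild type array. Cxcl5, a neutrophil attractant, stood at 4.44 and 4.47 on the wild type TNFα arrays. In p38α-/- MEFs it was at 0.00 and 0.00 untreated and at 0.00 and 2.29 with TNFα, and no p38α-/- array had a spot well above background. The ratios of 0 are again replaced dim signals, so the size of its response is uncertain. The difference of the responses was -3.31 ± 0.64 (limma, adjusted p = 0.033), and -0.99 (adjusted p = 0.107) when the background was corrected with normexp. Fos rose by 3.23 in wild type MEFs and was at 1.71 without p38α, a difference of -1.51 ± 0.58 that did not pass (adjusted p = 0.225). The promoter window of Fos also held a κB match, 214 bases before the transcription start, while Cxcl5 had no window.

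Further genes passed for a lower response among those at 2.5-fold or more in wild type MEFs. These were chosen after the values were seen. Rhob, a small GTPase gene with early-response kinetics, was at 2.55 and 2.25 on the wild type TNFα arrays. In p38α-/- MEFs it was already at 1.74 and 1.15 untreated, and at 1.91 and 1.98 with TNFα. Wild type arrays with SB203580 alone, also without TNFα, had Rhob at 1.32 and 0.80. On these arrays Ch25h was at 0.02 and -0.19 and Hs3st1 at 0.43 and 0.24. The responses of Rhob were 2.40 and 0.50, a difference of -1.90 ± 0.35 (limma, adjusted p = 0.033). Ch25h, which encodes cholesterol 25-hydroxylase, responded by 1.93 in wild type and 0.72 in p38α-/- MEFs, a difference of -1.21 ± 0.24 (adjusted p = 0.0386). The sulphotransferase gene Hs3st1 responded by 1.38 and 0.02, a difference of -1.35 ± 0.29 (adjusted p = 0.0447). The calls depended on single arrays. Rhob lost its call without any 1 array except the second untreated one (adjusted p from 0.101 to 0.226). Ch25h lost it without either p38α-/- TNFα array, the first untreated or the first wild type array (0.115 to 0.228), and Hs3st1 without any 1 of the 6 arrays (0.0531 to 0.262). Cxcl5 lost it without the first p38α-/- TNFα array, the first untreated or either wild type array (0.111 to 0.194).

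**Figure D4:**
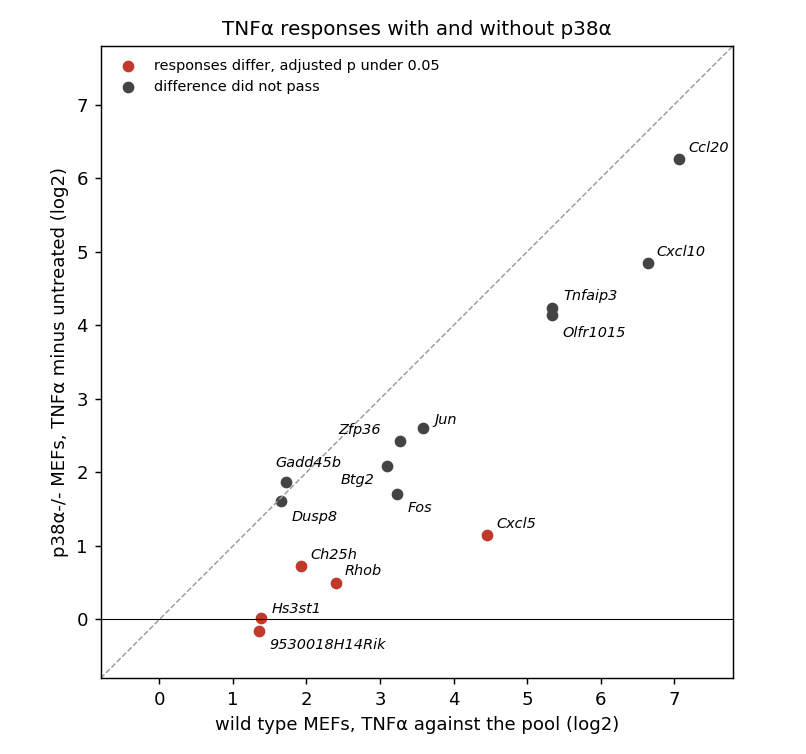
Log2 response to TNFα in p38α-/- MEFs (TNFα minus untreated, vertical axis) against that in wild type MEFs (TNFα against the pool, horizontal axis), for 15 named genes, over the probes measured on all 6 arrays. The dashed diagonal marks equal responses, and red points are genes whose responses differed (limma, adjusted p under 0.05), of which Rhob, Ch25h, Hs3st1 and 9530018H14Rik were chosen for that difference. Ccl20 lies at 7.07 and 6.26, and Rhob at 2.40 and 0.50. The position of Cxcl5 is uncertain, since no p38α-/- array had a spot of it well above background.

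Wild type MEFs given SB203580, an inhibitor of p38α and p38β, offer values beside those of the knockout. The treatment protocol gives its dose as 10 µM, while the titles write 10 mM. The titles also give 2 h for SB203580, longer than the time before the stimulus in the study's methods. TNFα on top of SB203580 raised 15 of 14021 genes (0.107%) and lowered 1 (0.00713%) against SB203580 alone. Ccl20 rose by 5.17 ± 0.55, Cxcl10 by 4.58 ± 0.57, Tnfaip3 by 4.38 ± 0.35, Ccl7 by 4.22 ± 0.34 and Irf1 by 3.56 ± 0.22 (limma, adjusted p from 2.17e-07 to 0.000635). The p38α-/- values were 6.26, 4.85, 4.24, 4.17 and 3.72. Cxcl5 stood at 0.00 and -0.19 with SB203580 and at 3.59 and 3.0 with SB203580 and TNFα, a rise of 3.39 ± 0.52 (adjusted p = 0.0052). Fos was already at 2.40 and 2.25 with SB203580 alone and at 2.97 and 3.24 with TNFα added (0.78 ± 0.47, adjusted p = 1). Differences between the inhibitor and the knockout were not tested.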

How the data were processed

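RNA of 15 groups of MEFs, 2 arrays each, had been hybridised to 2-colour Agilent arrays. The authors scanned them and extracted intensities with Agilent Feature Extraction (8.1.1.1 per the file headers, 9.1 in the submitters' processing notes), which normalised the dyes and deposited a log10 ratio of Cy5 to Cy3 per spot. The authors also deposited a series matrix on the log2 scale, centred near 0 in each array, a scale judged from its values. In the deposited files 0 columns lacked a sample.

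Control spots and outlier spots were left out, log10 ratios were multiplied by log2 of 10, and a gene's value was the mean of the probes measured on all arrays compared. The last choice was made after values were seen. Of 41174 probes, 33453 carried a gene name, giving 21689 genes. limma 3.58.1 in R 4.3.3 fitted 15 group means to 30 arrays (at most 15 residual degrees of freedom, empirical Bayes). Genes not measured on every array had fewer. P-values were adjusted by Benjamini-Hochberg over all genes measured, with a threshold of 0.05. With 2 arrays against 2 an exact permutation test cannot go below 0.333, so none was used. The fit was tested on simulated data. Python 3.11.15 with numpy 2.4.6, pandas 2.3.3 and matplotlib 3.10.9 prepared tables and figures. The number of arrays limits the precision.

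The arrays, gene lists and tests were chosen with earlier results of these data known. Of 273 list entries, 269 matched a gene on the array. Genes named were Mapk14, all that passed the threshold in p38α-/- MEFs and list members a list turned on. Named as well were those of the 10 highest genes measured on both wild type arrays that did not pass in p38α-/- MEFs. Alternatives were the brightest probe, the series matrix, normexp with loess (offset 50), bright probes only, outlier spots kept, median centring, a replicate block, fewer arrays in the fit, each array left out, fold thresholds, and, added after the data were seen, a term for scan day, every probe an array measured, and combinations with outlier spots kept. A result that the naming rule covers is not reported here.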

Additional observations from a re-analysis of the deposited data

Results flagged for a closer look

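A test of the difference between the TNFα responses of p38α-/- and wild type MEFs singled out 5 genes named here with a wild type response of at least 2.5-fold, and 1 gene with outlier spots kept. The difference on the log2 scale was -3.31 for Cxcl5, -1.90 for Rhob, -1.52 for 9530018H14Rik, -1.35 for Hs3st1 and -1.21 for Ch25h. No p38α-/- array had a Cxcl5 spot well above background, so its size is uncertain, and with normexp it was -0.99 and did not pass (limma, adjusted p = 0.107). The gene 9530018H14Rik lay 1.35 above the pool with TNFα in wild type MEFs and changed by -0.16 in p38α-/- MEFs (limma, adjusted p = 0.0447). Without TNFα it also lay above the pool, at 1.42 and 0.57 on the untreated p38α-/- arrays. On wild type arrays with SB203580 alone it was at 1.88 and 1.05, and TNFα added to SB203580 changed it by -0.29. Whether its wild type value is a response to TNFα was not tested. With outlier spots kept, Ier3 differed by 1.21 (limma, adjusted p = 0.0311), a higher response without p38α, in a setting in which 7.22% of 21689 genes were called higher. Its wild type arrays were at 1.19 and 1.68, its untreated p38α-/- arrays at -1.76 and -1.91.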

How the results depend on the processing

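The number of genes up in p38α-/- MEFs was 14, and 15 to 17 under normexp, the brightest probe, bright probes only and the replicate block. It was 23 with the series matrix, 24 with outlier spots kept, 33 with a term for scan day, 28 at 2.5-fold without a test, 1 with the 8 p38α-/- arrays and 0 with the 4 arrays alone. It was 34 with outlier spots kept and the replicate block and 47 with outlier spots kept and scan day. The scan-day term takes up the second TNFα array, alone on its day. With every probe an array measured it was 11, all among the 14, without Irf1 and Btg2. With each array left out it ran from 11 to 24, highest without the second TNFα array, and from 19 to 36 with outlier spots kept. Genes down numbered 0, but 1 with the replicate block (Id1, -1.09, limma adjusted p = 0.0376), 1 with scan day (Cuzd1), 4 at 2.5-fold and 0 to 2 with arrays left out. Over the 14 genes, 244 of 292 values under alternatives passed, 48 did not and 0 changed sign.

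The comparison with wild type MEFs was less stable. Higher responses numbered 53, and 186 with normexp, 1080 with the series matrix, 1565 with outlier spots kept, 301 with the replicate block, 27 with every probe an array measured and 2 to 86 with arrays left out. Lower responses numbered 23, and 282, 651, 199, 453 and 6 in the same order, 35 with the brightest probe, 114 with scan day and 0 to 66 with arrays left out. Sign changes were seen in the difference of responses of Ccl20 (-1.865 to 0.25 with arrays left out), Dusp8 (-0.308 to 0.209) and Gadd45b (-0.047 to 0.355, and -0.072 with normexp and -0.02 with the series matrix), no sign-changed value of which passed. The cause was not tested.

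Same-numbered arrays of the 4 p38α-/- groups deviated together (correlations 0.12 to 0.47, 6 of 6 pairs of groups above 0.1), but with 2 numbers this does not establish a pairing. The replicate block gave 17 genes up, all 14 included, and called the difference of responses for Cxcl10 (-2.11, limma adjusted p = 0.0143; also called with normexp, -1.16, and with scan day, -2.46) and Tnfaip3 (-1.25, adjusted p = 0.0253).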
